A study of Rattus norvegicus and Mus musculus with 17 samples.

Results

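The genes described here are 8 antioxidant target genes of the transcription factor NRF2, namely Nqo1, Gclc, Gclm, Txnrd1, Srxn1, Hmox1, Slc7a11 and Gsr. They were chosen by name, and each was looked up by symbol in 3 tables of gene expression in liver tumour models and regenerating liver. Of the 8 genes, 5 were listed in at least 1 table, among 11532 distinct gene symbols over the 3 tables. The table of the mouse tumour model listed Srxn1 only. The table of the rat Morris hepatoma listed Nqo1, Txnrd1, Srxn1, Hmox1 and Slc7a11, and the table of regenerating rat liver listed 0 of the 8. Gclc, Gclm and Gsr were listed in none of the 3 tables and have no value here.

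The mouse model used male C57BL/6 mice, which all received diethylnitrosamine (DEN, a liver carcinogen) at 50 mg/kg when 14 days old and TCPOBOP (an agonist of the nuclear receptor CAR that promotes liver tumours) at 2 mg/kg 30 days later. Their livers were compared between 5 months, before tumours had formed (n = 3), and 8 months, with tumours (n = 3), so the effects of age and of tumours cannot be told apart. The hepatoma group consisted of male ACI rats aged 10 weeks that had 1 M cells of MH3924a, a transplantable rat hepatoma line, placed in the liver, and the tumours were collected after 2 weeks (n = 4). The regenerating group held livers of male ACI rats aged 10 to 12 weeks, collected 24 hours after partial hepatectomy (n = 4). Livers of untreated male ACI rats (n = 3) were the controls of both rat groups, and the same 3 control libraries appear in both rat tables. The labels do not state that each library came from a separate animal, and p-values therefore reflect only library-to-library spread, which may be technical.

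NRF2, encoded by Nfe2l2, is held at a low level in unstressed cells by KEAP1, which delivers it to a ubiquitin ligase for degradation. Oxidants and electrophiles modify KEAP1, NRF2 then accumulates, pairs with a small MAF protein and binds antioxidant response elements near its target genes. In liver the pathway is known for its control of glutathione supply, thioredoxin recycling and the clearance of drugs and toxins, and it is activated by mutation in part of human liver cancers.

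All values are RPKM (reads per kilobase of transcript and 1 M reads) of whole tissue, in which fewer cells of a type and less RNA per cell cannot be told apart. Library depths were estimated from the steps between low values, and only a narrow range of ratios between libraries was searched. In the mouse table, the steps implied 31.6 to 40.7 M reads per library, and rat libraries were estimated at 1.02 to 1.18 times the depth of control library 1. A large difference in depth would have been missed, so these values do not show that depths were alike. Each table was limited to genes whose deposited p-value lay under 0.05, so every listed gene had already been selected for a difference between its groups. Differences are log2 fold changes of RPKM + 1, given ± SE, and this scale makes the change of a weakly expressed gene look smaller. They come with Benjamini-Hochberg adjusted p-values from limma over all protein-coding genes, and a gene was called at an adjusted p under 0.05. The median difference of all tested genes was -0.56 in the DEN comparison, 1.58 in the hepatoma comparison, 0.53 in regenerating liver and 1.47 between hepatoma and regenerating liver, so changes are also given relative to these shifts.

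Several rat libraries stood apart from others of their group. Control library 3 differed from control libraries 1 and 2 in both directions among hepatocyte genes. The epoxide hydrolase Ephx1 measured 121 RPKM there, against 1140 and 1345, and the apolipoprotein Apoa2 570 RPKM, against 5348 and 5646, whereas Apoa1 measured 5541 RPKM, against 3313 and 2293, and Serpina1 20517 RPKM, against 12629 and 11690. The 4 hepatomas differed in hepatocyte RNA, with Alb at 574 and 19.0 RPKM in libraries 1 and 2 and at 10943 and 10924 RPKM in libraries 3 and 4. For the 5 genes, values without control library 3 and without hepatoma libraries 3 and 4 are given below, and for the wider lists where a call or count rests on them.

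In Morris hepatoma the 5 listed genes were all higher than in control liver, by 0.96 to 2.98 on the log2 scale, and each was called, although Slc7a11 passed the filter on low values only through the hepatomas. Txnrd1 and Srxn1, both of the thioredoxin system, were the 2 that kept this call when library medians were set equal or distributions were quantile normalized. Of the 8233 genes tested in this comparison, 85.5% were called higher, 8.73% lower and 94.3% in either direction. The 5 genes' median difference was 2.33, against 1.58 for all tested genes. Since a gene was listed only if its groups differed, these figures describe the listed genes and are no support for a difference of the 8.

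Txnrd1, cytosolic thioredoxin reductase, uses NADPH to reduce thioredoxin. Its level (GeneID 58819) was 26.4, 30.9 and 14.2 RPKM in control libraries 1 to 3, and 207, 190, 165 and 182 RPKM in hepatoma libraries 1 to 4. The lowest hepatoma lay far above the highest control, and the control with least Txnrd1 was library 3. The means were 23.8 ± 8.62 (SD, n = 3) and 186 ± 17.1 (SD, n = 4) RPKM, a ratio of 7.81. The log2 fold change was 2.98 ± 0.26 (limma adjusted p = 9.05e-06), which is 1.40 above the median of tested genes. It was 2.66 without control library 3 and 3.07 without hepatoma libraries 3 and 4, still called in both fits. With library medians set equal it dropped to 1.32, and under quantile normalization to 2.01.

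Srxn1, sulfiredoxin, repairs peroxiredoxins that have been over-oxidized by peroxide. In the rats (GeneID 296271) it measured 4.29, 4.86 and 6.72 RPKM in the control libraries and 31.8, 26.8, 29.1 and 34.2 RPKM in the hepatomas. The groups did not overlap, as was true of 98.6% of the tested genes, and the hepatomas differed among themselves by less than 8 RPKM. The mean rose from 5.29 ± 1.27 (SD, n = 3) to 30.5 ± 3.24 RPKM (SD, n = 4), a ratio of 5.76. Its log2 fold change of 2.34 ± 0.18 (limma adjusted p = 4.75e-06) lay 0.76 above the median of tested genes. It was 2.49 without control library 3 and 2.28 without hepatoma libraries 3 and 4, called in both fits. With library medians set equal the difference dropped to 0.67 (limma adjusted p = 0.0394). Under quantile normalization it was 0.74 (limma adjusted p = 0.0295).

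Hmox1 encodes the inducible haem oxygenase, which breaks haem down to biliverdin, iron and carbon monoxide and is also abundant in macrophages that recycle red blood cells. Its level (GeneID 24451) was 35.95, 36.1 and 172 RPKM in control libraries 1 to 3 and 263, 246, 419 and 339 RPKM in hepatoma libraries 1 to 4. Control library 3 had 4.78 times the mean of the other 2 controls, yet stayed below every hepatoma. The means were 81.4 ± 78.6 (SD, n = 3) and 317 ± 79.2 RPKM (SD, n = 4), and the log2 fold change was 2.33 ± 0.56 (limma adjusted p = 0.0136). Without control library 3 it was 3.07 (limma adjusted p = 1.08e-05). Without hepatoma libraries 3 and 4, the 2 with more hepatocyte RNA, it was 2.04 and no longer passed the test (limma adjusted p = 0.0808).

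Nqo1, a quinone reductase widely used as a readout of NRF2 activity, showed the smallest difference of the 5. It measured 37.5, 36.7 and 85.2 RPKM in the controls and 90.7, 105, 90.1 and 102 RPKM in the hepatomas (GeneID 24314). Control library 3, at 2.30 times the other controls, lay just under the lowest hepatoma. The means were 53.2 ± 27.8 (SD, n = 3) and 96.9 ± 7.52 RPKM (SD, n = 4), and Nqo1 rose by 0.96 ± 0.29 on the log2 scale (limma adjusted p = 0.0265), a direction that turned to -0.70 when library medians were set equal and to -0.03 under quantile normalization, neither of them past the threshold. Relative to the median of tested genes the difference was -0.62. The call was lost in 5 of 7 fits that left out 1 library, those without control 1, control 2, or hepatoma 1, 2 or 4 (limma adjusted p 0.0515 to 0.124), and also without hepatomas 3 and 4 together (0.147). Without control library 3 the difference was 1.36 (limma adjusted p = 0.000155).

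Slc7a11 encodes xCT, the subunit of the cystine-glutamate exchanger that supplies cysteine for glutathione. The gene (GeneID 310392) was listed at 0.001 RPKM, the tables' value for no reads, in all 3 controls, and at 1.74, 2.30, 1.62 and 1.01 RPKM in hepatoma libraries 1 to 4. Reads were thus present in every hepatoma, at the lowest level of the 5 genes, and no fold is given against a group listed at 0. It reached the minimum of 1 RPKM only through the hepatomas, so it had to differ to be tested and its call is no support for a difference. The fitted difference of 1.39 ± 0.17 depends on the pseudocount and turned to -0.27 with library medians set equal, and it was 1.39 without control library 3 and 1.59 without hepatoma libraries 3 and 4. The enzymes that use this cysteine for glutathione synthesis, Gclc and Gclm, and the reductase that regenerates glutathione, Gsr, were not listed.

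The order of levels, which RPKM allows since it is per length, differed little between the rat groups. In control liver Hmox1 and Nqo1, whose libraries overlapped, stood above Txnrd1, Srxn1 and Slc7a11. Hmox1 had the higher mean of the 2 through control library 3, while Nqo1 had the higher median (37.5 against 36.1 RPKM) and was higher in libraries 1 and 2. In hepatoma it ran from Hmox1 to Txnrd1, Nqo1, Srxn1 and Slc7a11, with no overlap between neighbours in that order. Txnrd1 lay below Nqo1 in each control library and above it in each hepatoma.

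**Figure D1:**
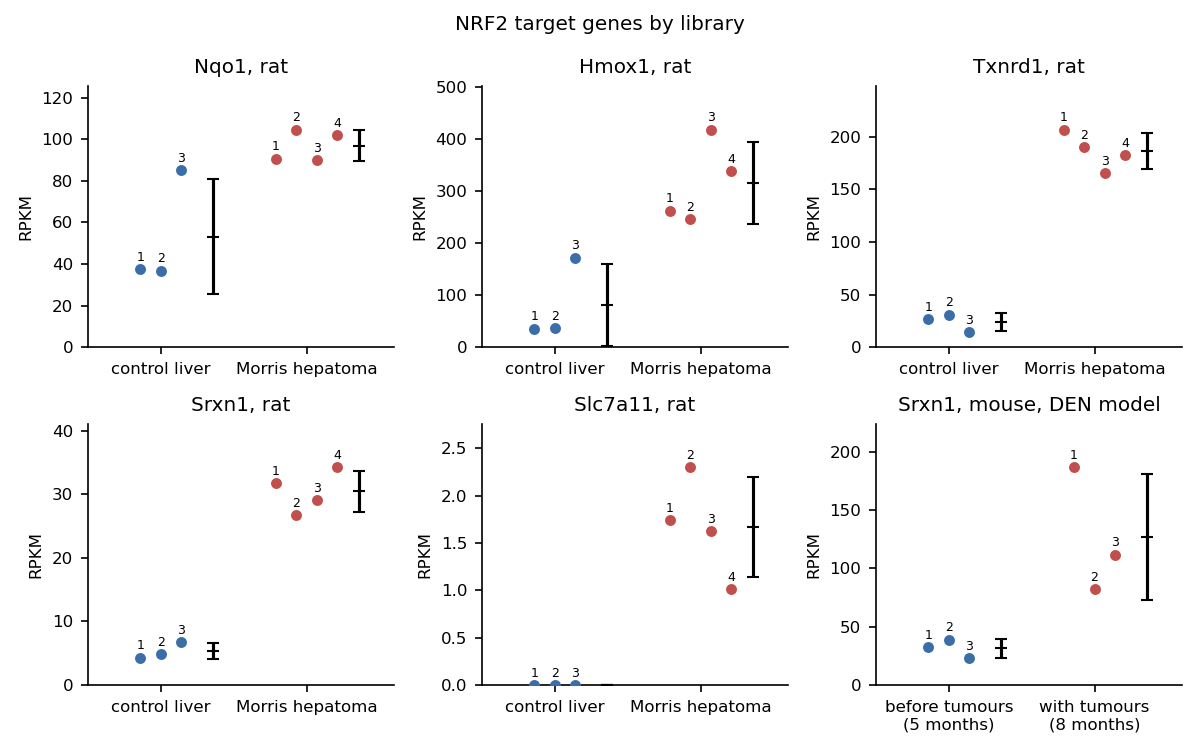
RPKM of each listed gene in each library (points, numbered by library) with the mean and SD of the group (bars), for 5 genes in rat control liver and Morris hepatoma and for Srxn1 in the mouse DEN model. No panel has overlapping groups, as was true of 98.6% of tested genes in hepatoma and 3683 of 3684 in the DEN model. Control library 3 is the high point of Nqo1 (85.2 RPKM) and Hmox1 (172 RPKM) and the low point of Txnrd1 (14.2 RPKM) among the controls.

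**Figure D2:**
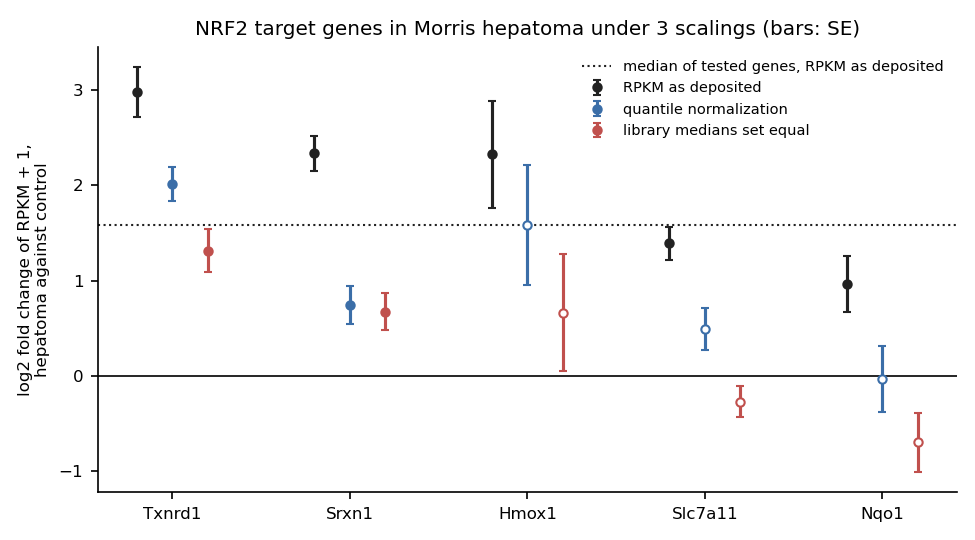
Log2 fold change of RPKM + 1 (± SE) of hepatoma against control for the 5 listed genes, as deposited and under 2 other scalings, with filled points for an adjusted p under 0.05 and the median of tested genes (1.58) as a dotted line. Txnrd1 and Srxn1 stay above 0 with filled points in all 3, while Nqo1 falls to -0.70 and -0.03 with open points.

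The stretches upstream of 3 of these genes are shown, those with the larger differences that kept their call under both other scalings (Txnrd1 and Srxn1) and Nqo1, with the smallest. They come from RefSeq (build GRCr8), which held promoter entries for 6 of the 8 genes, and they were searched on both strands, from 250 bases before to 50 after the start, for 2 letter patterns of the antioxidant response element core, TGACNNNGC and TGAGNNNGC. Capitals mark a match, and a match on the minus strand appears as its reverse complement.
Srxn1, chr3:161064562-161064821, plus strand, 250 bases before and 10 after the start: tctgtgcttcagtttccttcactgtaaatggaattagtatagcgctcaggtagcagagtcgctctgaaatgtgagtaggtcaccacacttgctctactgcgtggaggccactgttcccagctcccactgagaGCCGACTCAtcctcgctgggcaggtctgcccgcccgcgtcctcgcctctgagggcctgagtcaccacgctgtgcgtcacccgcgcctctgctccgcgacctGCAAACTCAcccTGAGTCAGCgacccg
Txnrd1, chr7:22755905-22756154, minus strand, 250 bases before 1 of its 2 listed starts: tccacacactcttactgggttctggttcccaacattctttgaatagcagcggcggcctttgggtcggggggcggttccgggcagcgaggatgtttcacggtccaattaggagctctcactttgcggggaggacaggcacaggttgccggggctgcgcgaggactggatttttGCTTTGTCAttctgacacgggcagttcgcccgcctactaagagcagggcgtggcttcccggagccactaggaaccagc
Nqo1, chr19:52220268-52220517, minus strand, 250 bases before the start: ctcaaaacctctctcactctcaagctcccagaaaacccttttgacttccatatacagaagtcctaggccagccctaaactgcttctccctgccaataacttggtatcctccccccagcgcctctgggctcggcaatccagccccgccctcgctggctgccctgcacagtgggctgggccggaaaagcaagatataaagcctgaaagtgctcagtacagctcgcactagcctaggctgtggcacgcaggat
The Srxn1 window held 3 matches to TGAGNNNGC, beginning 118, 17 and 5 bases before the start, and the last of them runs across it. The Txnrd1 window held 1 match to TGACNNNGC, beginning 78 bases before the start, and the window of its other start held 0. Of the 2 genes with an entry but no expression value here, Gclm had 1 match to TGACNNNGC, beginning 172 bases before the start, and Gclc 0. The Nqo1 and Slc7a11 windows held 0 matches, which says only that these letters are not in these windows. Either pattern was found in 27.1% of 33469 rat promoter windows of the same kind, TGACNNNGC in 12.1% and TGAGNNNGC in 17.2%. A match describes the letters and is not a measured binding site.

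In the mouse DEN model Srxn1 was the 1 gene of the 8 that was listed, and it rose against the trend of its table. Srxn1 (GeneID 76650) measured 32.4, 39.0 and 23.0 RPKM in the 3 livers before tumours and 187, 82.0 and 112 RPKM in the 3 livers with tumours. Each liver with tumours lay above each liver before tumours, as 3683 of 3684 tested genes (100% after rounding) had groups that did not overlap, and library 1 with tumours was the highest. The means were 31.5 ± 8.05 and 127 ± 53.9 RPKM (SD, n = 3 each), a ratio of 4.03. The log2 fold change was 1.93 ± 0.31 (limma adjusted p = 0.0066), 2.49 above the median of tested genes. Of the 3684 genes tested there, 17.9% were called higher, 49.5% lower and 67.3% in either direction. The call held in each fit that left out 1 library, with differences from 1.61 to 2.20, and under both other scalings, at 2.32 and 2.59.

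Regenerating liver listed 0 of the 8 genes, among 2093 listed genes, and of its 1703 tested genes 21.2% were called higher, 0.763% lower and 22% in either direction, with groups that did not overlap in 93%. Why a gene is not listed is not recorded in the files, so no statement on its level is made. None of the 8 was listed in both rat tables, and so hepatoma and regenerating liver could not be compared for them.

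The other genes of the pathway were taken as 95 symbols in 8 lists by role. In DEN livers 42 of them were listed and tested, of which 3 rose, 25 fell and 14 were not called, where 17.9% of all tested genes were called higher and 49.5% lower. Their median difference was -1.03 against -0.56 for all tested genes. Of the 3 that rose, Maff reached the filter only through the livers with tumours, so its call is no support for a difference. With library medians set equal 7 rose and 15 fell, and under quantile normalization 7 rose and 8 fell. In hepatoma 50 were listed and 49 tested, of which 32 rose, 13 fell and 4 were not called, where 85.5% of all tested genes were called higher and 8.73% lower, and their median was 1.32 against 1.58. Of the 32 that rose, Maff, Akr1b8, Abcc1, Abcc3, Abcc4 and Cbr3 had control means of 0.18 to 0.90 RPKM. They reached the filter only through the hepatomas, so their calls are no support for a difference. Setting library medians equal gave 10 and 17 there, and quantile normalization 16 and 15. Without hepatoma libraries 3 and 4 the numbers were 29 and 16. Lower calls dropped from 13 to 5 without control library 1 or 2 and to 7 without hepatoma library 1.

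Among the NRF2 regulators, DEN livers with tumours listed 4. Maff, a small MAF partner, rose from 1.12 ± 0.42 to 5.31 ± 2.21 RPKM (log2 fold change 1.53 ± 0.26), whereas Mafg, another small MAF, fell from 9.93 ± 1.38 to 5.03 ± 0.36 RPKM. Nfe2l2 itself measured 30.0 ± 5.36 and 19.2 ± 3.78 RPKM (-0.62 ± 0.19) and was not called (limma adjusted p = 0.0793). Of the 4, 1 was called higher, 1 lower and 2 not called, beside 17.9% of all tested genes called higher and 49.5% lower. Under each of the 2 other scalings 2 were higher and 0 lower.

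In hepatoma all 8 listed regulators were called higher as deposited, beside 85.5% of all tested genes, but 2 were higher and 1 lower under each of the 2 other scalings. Mafk rose from 3.32 ± 0.62 to 35.8 ± 7.75 RPKM (3.08 ± 0.21) and Maff from 0.74 ± 0.68 to 21.8 ± 7.32 RPKM (3.73 ± 0.30). Nfe2l1, a relative of NRF2 that responds to proteasome stress, rose by 1.77 ± 0.19. Nfe2l2 rose from 33.8 ± 11.7 to 63.7 ± 3.92 RPKM (0.96 ± 0.25, limma adjusted p = 0.0122), a direction that turned to -0.71 and -0.17 under median and quantile scaling. The inhibitor Keap1 rose from 10.3 ± 2.82 to 15.9 ± 1.22 RPKM (0.61 ± 0.20, limma adjusted p = 0.0393), but was called lower under both scalings, at -1.05 and -0.97. The Keap1 call as deposited was also lost without control library 1 or 3 or hepatoma library 1, 2 or 4. Without hepatoma libraries 3 and 4 together neither Nfe2l2 (1.03, limma adjusted p = 0.0645) nor Keap1 (0.69, limma adjusted p = 0.0957) was called.

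Of the genes for glutathione synthesis and peroxidases, DEN livers with tumours showed 2 higher, 3 lower and 1 not called. Among all genes tested there 17.9% were called higher and 49.5% lower. Slc3a2, the heavy chain that xCT needs to reach the cell surface, rose from 15.6 ± 2.36 to 54.4 ± 5.73 RPKM (1.74 ± 0.15, limma adjusted p = 0.00046), while Slc7a11 was not listed. Gpx1, the main cytosolic glutathione peroxidase, fell from 1547 ± 109 to 324 ± 88.3 RPKM (-2.28 ± 0.21), and the glutaredoxin Glrx fell by 1.34. In hepatoma 4 of 5 tested rose as deposited, beside 85.5% of all tested genes called higher. Under the other scalings 1 or 2 rose and 1 fell. The secreted peroxidase Gpx3 rose from 6.77 ± 2.16 to 76.1 ± 27.1 RPKM and Chac1, which degrades glutathione, by 2.56 ± 0.50. Glutathione synthetase Gss rose by 1.48 ± 0.22, but turned to -0.18 with library medians set equal. Slc3a2 was listed in hepatoma but stayed under the minimum of 1 RPKM.

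Glutathione transferases conjugate glutathione to electrophiles, and many are abundant in hepatocytes. In DEN livers 9 of 14 tested fell and 0 rose, beside 49.5% of all tested genes called lower and 17.9% higher, while 5 fell and 1 rose with library medians set equal, and 4 and 1 under quantile normalization. Mgst1 fell from 3894 ± 159 to 1026 ± 128 RPKM, Gsta3 from 1162 ± 162 to 334 ± 40.9 RPKM and Gstt1 from 578 ± 113 to 223 ± 12.9 RPKM. In hepatoma 3 of 10 rose and 7 fell, beside 85.5% of all tested genes called higher and 8.73% lower. Gstp1 rose from 35.1 ± 23.0 to 5680 ± 2139 RPKM, with library 3 the lowest at 2484 RPKM, and Gstm5 from 1.37 ± 0.13 to 30.2 ± 5.78 RPKM, whereas Mgst1 fell from 2283 ± 927 to 292 ± 145 RPKM. Lower calls among them dropped from 7 to 3 without control library 1 or 2 and to 4 without hepatoma library 1, and were 7 without control library 3. Reads of near-identical transferase copies may have been split in the authors' counting, so values of single transferases are uncertain.

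Cytosolic thioredoxin is reduced by Txnrd1, and it reduces peroxiredoxins in turn, while Srxn1 repairs the typical class of these, to which Prdx2 belongs and Prdx6 does not. In DEN livers 3 of 6 fell and 0 rose, beside 49.5% of all tested genes called lower, among them Prdx6 (287 ± 49.0 to 115 ± 15.0 RPKM), Txnrd2, the mitochondrial reductase (-0.65 ± 0.15), and Txnrd3 (-0.59 ± 0.12). With library medians set equal 1 fell and 1 rose, and under quantile normalization 0 fell and 1 rose. The Txnrd2 call was lost in 5 of 6 fits that left out 1 library, all but the fit without library 1 with tumours, and the Txnrd3 call without library 2 before tumours. In hepatoma all 7 rose as deposited, beside 85.5% of all tested genes, but 1 and 3 rose under median and quantile scaling. Prdx2, a peroxiredoxin that Srxn1 repairs, rose from 88.3 ± 14.1 to 565 ± 150 RPKM (2.64 ± 0.25), and the thioredoxin inhibitor Txnip rose by 2.06 ± 0.25. Prdx6 rose by 1.18 ± 0.21, but turned to -0.48 with library medians set equal.

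Enzymes that supply NADPH to both systems were listed in small numbers. Me1, malic enzyme, fell from 84.2 ± 20.03 to 19.4 ± 3.79 RPKM and Idh1, cytosolic isocitrate dehydrogenase, by 1.23 in DEN livers with tumours. These were the 2 listed there, beside 49.5% of all tested genes called lower. In hepatoma 3 of 4 tested rose and 1 fell, beside 85.5% of all tested genes called higher and 8.73% lower. Taldo1, transaldolase of the pentose phosphate pathway, rose from 39.7 ± 7.29 to 168 ± 28.5 RPKM, with library 4 the lowest at 126 RPKM. Idh1 fell from 91.3 ± 28.6 to 21.2 ± 9.40 RPKM.

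Genes that handle haem, the substrate of Hmox1, and iron, a product, showed 0 calls among 3 tested in DEN livers. Among all genes tested there 67.3% were called in either direction. In hepatoma Fth1, the iron-storing ferritin heavy chain, rose from 1902 ± 473 to 4723 ± 974 RPKM (1.32 ± 0.28), but turned to -0.34 with library medians set equal. Fech, the last enzyme of haem synthesis, fell by 1.13, with overlapping groups, a call lost without control library 1 or 2 or hepatoma library 1 or 2. The third gene tested was not called.

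For detoxification and export, all 4 genes tested in DEN livers fell, beside 49.5% of all tested genes, among them Ephx1, an epoxide hydrolase (675 ± 115 to 299 ± 3.21 RPKM), Aox1 and Nqo2, the relative of Nqo1 (32.0 ± 2.59 to 16.1 ± 2.44 RPKM). With library medians set equal 2 fell, and under quantile normalization 0. In hepatoma 6 of 11 rose, 3 fell and 2 were not called, beside 85.5% of all tested genes called higher and 8.73% lower. Of the 6 that rose, all but Cbr1 reached the filter only through the hepatomas, so their calls are no support for a difference. Lower calls came to 1 without control library 1 or 2, and 3 rose under each other scaling. Akr1b8, an aldo-keto reductase, had the largest of these differences (8.97 ± 0.23). The carbonyl reductase Cbr1 rose from 8.11 ± 1.40 to 76.1 ± 14.9 RPKM and the conjugate exporter Abcc3 from 0.48 ± 0.11 to 4.28 ± 0.92 RPKM. Of superoxide dismutases and catalase, Sod1 (-1.21 ± 0.17), Sod2 (-1.12 ± 0.14) and Cat (-1.25 ± 0.15) all fell in DEN livers, beside 49.5% of all tested genes. Of the 3, 1 was still called under quantile normalization. Cat also fell in hepatoma (-3.51 ± 0.95, and -4.61 without control library 3), a call lost without control library 1 or 2 or hepatoma library 1, 3 or 4.

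**Figure D3:**
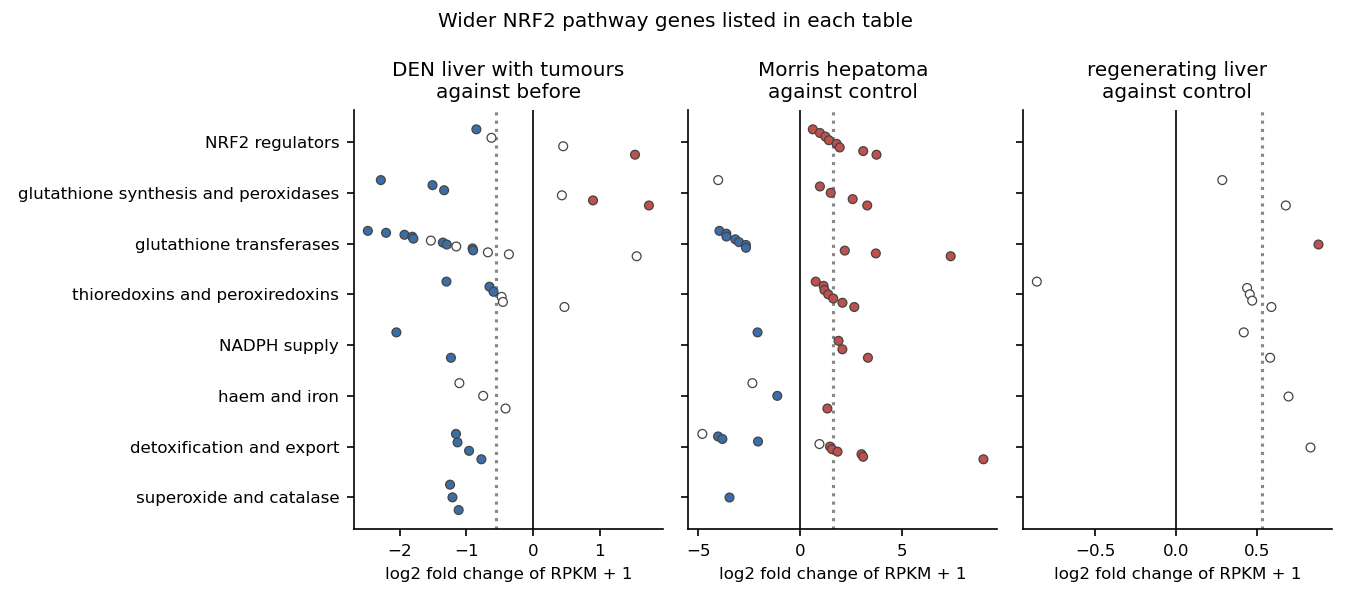
Log2 fold change of RPKM + 1 of each tested gene of the 8 wider lists (1 point a gene, filled red for called higher, blue for called lower, open for not called) in 3 comparisons, with the median of all tested genes as a dotted line. Of the DEN points 25 of 42 are blue and of the hepatoma points 32 of 49 red, and in regenerating liver 1 of 12 is filled.

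Regenerating liver listed 13 of the 95 wider symbols, and 12 were tested. Gstm5 rose from 1.37 ± 0.13 to 3.44 ± 1.02 RPKM (0.88 ± 0.16, limma adjusted p = 0.033), beside 21.2% of tested genes called higher, and its call was lost in 5 of 7 fits that left out 1 library, those without control 1, 2 or 3 or regenerating library 1 or 2. The other 11 were not called. Among them Prdx6 measured 222 ± 26.8 and 333 ± 30.2 RPKM in control and regenerating liver, and Txnip 18.4 ± 4.33 and 9.83 ± 2.81 RPKM.

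Between hepatoma and regenerating liver 10 wider genes were listed in both rat tables, of which 7 were higher in hepatoma, 1 lower and 2 not called, where 80.8% of 1673 tested genes were called higher, 4% lower and 84.8% in either direction, and 90.4% had groups that did not overlap. Prdx2 was higher by 2.17 ± 0.19, Txnip by 2.92 ± 0.23 and Gstm5 by 2.82 ± 0.19, and Idh1 was lower by 2.68. Prdx6 was higher by 0.59 ± 0.16 (limma adjusted p = 0.0357) as deposited, but lower under both other scalings, at -0.95 and -0.83. The carbonyl reductase Cbr3 was higher by 1.08 ± 0.23 as deposited, a direction that turned to -0.46 and -0.18, and its call was lost without hepatoma library 1 or 3. Cbr3 averaged 0.92 ± 0.17 RPKM in regenerating liver and reached the filter only through the hepatomas. Its call, counted in the 7, is thus no support for a difference. The Prdx6 call was lost without hepatoma library 1, 2 or 4 or regenerating library 1, 2 or 3. Both rat comparisons with control share their control libraries, so their values are not independent.

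Markers of cell types moved with the groups beside these genes. In hepatoma 7 of 9 hepatocyte markers were listed, with 0 called higher and 1 lower, and their summed level was 1006, 39.3, 23076 and 19697 RPKM in libraries 1 to 4, against 87100 to 120213 RPKM in the controls. Of 11 macrophage markers 5 were listed, with 3 called higher and 1 lower, and their sum was 745 to 1353 RPKM, against 161 to 198 RPKM, with Lyz2 at 581 to 1232 RPKM against 12.0 to 50.7 RPKM. Clec4f and Cd5l, 2 markers of resident Kupffer cells, went the other way, with Clec4f at 6.02 to 26.8 RPKM against 70.2 to 91.9 RPKM and Cd5l at 0.41 to 12.2 RPKM against 28.6 to 38.2 RPKM. All 5 stellate cell and fibroblast markers were called higher (sum 404 to 1068 against 19.1 to 57.1 RPKM), as were both endothelial markers, beside 85.5% of all tested genes. No listed marker was at 0 in any library.

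The macrophage sum was highest in hepatoma library 2, at 1353 RPKM, of which Lyz2 made up 1232 RPKM. Hmox1 was highest in hepatoma library 3 (419 RPKM) and lowest in library 2 (246 RPKM). Cd163 was also highest in hepatoma library 3, at 19.0 RPKM, while Cd68 was lowest there, at 79.4 RPKM. Among the controls, library 3 had the most Hmox1 (172 RPKM) and the most Lyz2 (50.7 RPKM, against 15.4 and 12.0 in libraries 1 and 2). That library also had the most Cd163 (10.4 RPKM, against 5.43 and 6.64). It had the least Cd68 (28.4 RPKM, against 32.4 and 34.4) and Clec4f (70.2 RPKM, against 79.0 and 91.9). The part of these cells in the levels of the 5 genes was not tested. Txnrd1 measured 207 and 190 RPKM in hepatoma libraries 1 and 2, and 165 and 182 RPKM in libraries 3 and 4. Srxn1 measured 31.8 and 26.8 RPKM in libraries 1 and 2, and 29.1 and 34.2 RPKM in libraries 3 and 4. Hepatocyte markers summed to 1006 and 39.3 RPKM in libraries 1 and 2, and 23076 and 19697 RPKM in libraries 3 and 4. The part of hepatocyte RNA in these levels was not tested.

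In the DEN model the sum of 6 hepatocyte markers was 61942 to 75597 RPKM before tumours and 151566 to 170792 RPKM with tumours, with 3 called higher and 1 lower. Apoa2 went against the sum, from between 18837 and 23264 to between 7441 and 12294 RPKM, as did Cps1, from between 156 and 233 to between 40.1 and 133 RPKM. The 6 listed macrophage markers summed to 93.4 to 115 and 83.9 to 116 RPKM, which overlap, with 2 called higher and 2 lower. This sum joins opposite directions. Lyz2 went from between 28.5 and 43.2 to between 58.6 and 71.5 RPKM, and Cd68 was also higher. Clec4f went from between 30.2 and 39.7 to between 2.82 and 14.2 RPKM, and Vsig4, Timd4 and Cd163 were also lower. All 3 listed endothelial markers were called higher. Of all genes tested in this comparison 17.9% were called higher and 49.5% lower. Alas2, the erythroid enzyme of haem synthesis, fell from between 67.8 and 79.9 RPKM to between 6.73 and 15.0 RPKM. Their part in the rise of Srxn1 was not tested.

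**Figure D4:**
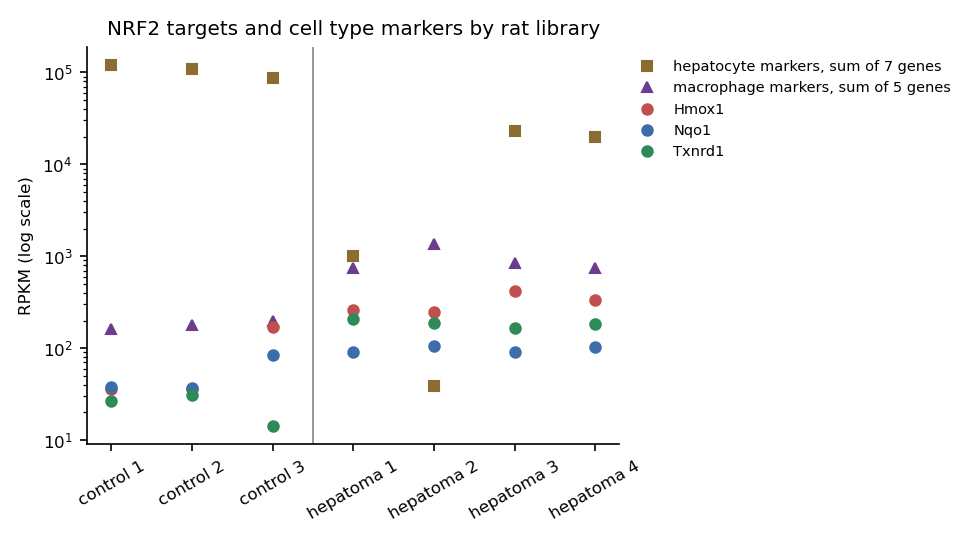
RPKM on a log scale of Hmox1, Nqo1 and Txnrd1 and the summed RPKM of 7 hepatocyte and 5 macrophage markers in each rat control and hepatoma library. Hepatocyte markers run from 39.3 RPKM in hepatoma library 2 to 120213 RPKM in control library 1, while Txnrd1 stays between 165 and 207 RPKM in the 4 hepatomas.

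The patterns most like these genes over all libraries of a table were found by Pearson correlation of log2(RPKM + 1). For Srxn1 in the DEN table (6 libraries, 3683 other genes) they were Fam46a (r = 0.994), Tomm5 (0.993) and Lysmd2 (0.992). For Nqo1 in the hepatoma table (7 libraries, 8232 other genes) they were Btg1 (0.996), Tnfrsf21 (0.995) and Pcolce (0.994). These values include the difference between the groups, which all listed genes share by selection, and they are descriptions only.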

How the data were processed

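Total RNA of flash-frozen liver or tumour was sequenced on Illumina libraries, per the labels' protocols. Each of the 3 deposited tables holds a value per library that was read as RPKM, since the headers name no unit: low values moved in steps that shrank with transcript length (Spearman rho -0.739 over 79 mouse genes, of which 26 gave a depth within 0.5 M reads of 33.5 M). How reads were aligned and counted, and on which build, is not given in the sources used here. Per the file headers the authors also deposited a log2 ratio of group means and a p-value labelled holm. In the authors' deposited tables the log2 ratio and p-value were 2.01 and 0.0387 for mouse Srxn1, and in rat 2.97 and 2.53e-05 for Txnrd1, 2.53 and 5.78e-05 for Srxn1, 1.96 and 0.0114 for Hmox1, 0.87 and 0.0272 for Nqo1, and 10.70 and 0.00307 for Slc7a11, the last resting on 0.001 as the value for no reads.

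For the tests, 1 was added to the RPKM values, log2 was taken, and limma 3.58.1 was fitted in R 4.3.3 with its trend and robust settings (two-sided). The number of libraries in which a gene needed 1 RPKM was the size of the smaller group, which all listed genes of the 8 reached. P-values were adjusted over all annotated protein-coding genes, 21951 by GENCODE M21 for mouse and 23154 by RefSeq GRCr8 for rat, because the tables are preselected. The tables' listed genes came to 21.2%, 39.2% and 9.04% of these numbers. Only the 2 groups compared entered each fit. The procedure was tested on simulated data. The hepatoma table had a blank line, which was dropped. Tables and figures were made in Python 3.11.15 (pandas 2.3.3, matplotlib 3.10.9).

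The 8 genes and all lists were chosen with earlier results of these data known. Up to 3 genes of each wider list were named per comparison, those called with the smallest adjusted p, beside Nfe2l2 and Keap1, and 1 gene that the rule names is not reported here. Text on Clec4f, Cd5l, Cd68, Cd163, Vsig4, Timd4, Lyz2, Alb, Apoa1, Apoa2, Cps1, Serpina1, Alas2, Ephx1 in rat and the 2 libraries with most hepatocyte RNA was added after their values were seen. Alternatives were a pseudocount of 0.1, no filter, a filter at 5 RPKM, equal library medians, quantile normalization, limma without trend and robust, adjustment over tested genes only, a replicate block, all 3 rat groups in 1 fit, and leaving out each library. Equal medians and quantile normalization are computed on preselected genes and so also remove any shift these have in common.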

Additional observations from a re-analysis of the deposited data

Results flagged for a closer look

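In 29 groups of 4 hepatoma or regenerating libraries of the named genes, 2 held a library whose gap to its nearest neighbour was larger, relative to the group's range, than Dixon's 95% critical value, which chance gives in about 1 in 20 groups. Gstp1 measured 2484 RPKM in hepatoma library 3, against 6606 to 7007 RPKM in the other hepatomas. Taldo1 measured 126 RPKM in hepatoma library 4, against 178 to 185 RPKM in the others. None of the 5 listed antioxidant genes had such a library.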

How the results depend on the processing

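Srxn1 kept its call in every alternative run in both models, and Txnrd1 in every one run in hepatoma. Their hepatoma differences were smaller with equal medians and under quantile normalization, at 0.67 and 0.74 for Srxn1 and 1.32 and 2.01 for Txnrd1. In hepatoma the count of the 8 genes called higher was 5, but 2 with library medians set equal, 2 under quantile normalization, 4 to 5 leaving out 1 library, and 3 without hepatoma libraries 3 and 4, an alternative added after seeing the data. Hmox1 then missed the threshold under both scalings, at 0.66 and 1.58. Nqo1 turned to -0.70 with equal medians and to -0.032 under quantile normalization, and Slc7a11 to -0.27 with equal medians, while Slc7a11 stood at 0.50 under quantile normalization. Reversed signs were further found in hepatoma for Nfe2l2 (-0.71, -0.17) and Keap1 (-1.05, -0.97) under median and quantile scaling, and for Gss (-0.18), Prdx6 (-0.48) and Fth1 (-0.34) with equal medians. Against regenerating liver they were found for Prdx6 (-0.95, -0.83) and Cbr3 (-0.46, -0.18). The cause was not tested.

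Wider list counts moved as follows. In DEN livers 3 higher became 7 with equal medians, under quantile normalization and when adjusted over tested genes only, and 25 lower became 15 and 8 under the 2 scalings. In hepatoma 32 higher became 10, 16 and, with all 3 rat groups in 1 fit of fewer genes, 8, and 13 lower became 3 with the replicate block, 1 with all groups, and 5 to 13 leaving out 1 library. In regenerating liver 1 higher became 0 at a filter of 5 RPKM, under both scalings and with the block, 11 when adjusted over tested genes only (with 1 lower in place of 0), and 0 to 2 leaving out 1 library. Against regenerating liver 7 higher became 4 and 4 under the scalings, and 1 lower became 3, 4, and 2 each without trend and robust, adjusted over tested genes only and with all groups. Deviations from group means correlated at -0.317 to 0.151 between same-numbered libraries and at -0.229 to 0.316 between others. With so few libraries these values cannot show whether the numbers pair samples, and the labels name no pairing. With the replicate block Nqo1 was 0.94 (limma adjusted p = 0.113), and the other 4 hepatoma genes and mouse Srxn1 kept their calls. The fit of all 3 rat groups holds none of the 8 genes, and Slc7a11 has no value at a filter of 5 RPKM. With no read counts, no counting interval is given, and levels near 1 RPKM rest on few reads.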
